A study of Mus musculus with 6 samples.

Results

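The genes described here are 10 regulators of the G1 phase of the cell cycle out of 46983 genes in the deposited tables: the D cyclins Ccnd1, Ccnd2 and Ccnd3, their kinase Cdk4, the kinase inhibitors Cdkn1b, Cdkn2c and Cdkn2d, and the RB family Rb1, Rbl1 and Rbl2. They were chosen by family membership around Ccnd1, which had been picked from its measured level in the same comparison because it was higher in the knockout libraries. Values of Ccnd1 are therefore given as a description, with no test, and values of the other 9 genes come from a comparison whose results were known when they were chosen. All 10 symbols were matched to 1 Ensembl identifier each.

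The study asked whether LEDGF, the chromatin-bound protein encoded by Psip1, is needed in normal blood formation. Bone marrow of C57BL/6 mice, aged 8 to 11 weeks in the sample labels and 8 to 10 weeks in the protocol, was depleted of mature blood cells, and the remaining progenitors formed colonies for 6 to 7 days in methylcellulose containing stem cell factor, IL-6 and IL-3, after which polyadenylated RNA was sequenced. The 3 WT samples are labelled wild type, and the series design gives their mice as PsipFl/Fl, a floxed allele. The 3 KO samples are labelled Psip1-KO, and the design gives PsipVav/Vav. Vav is the name of a gene active in blood cells whose promoter is often used to drive Cre, but the labels name no Cre, do not say which part of Psip1 is deleted, and do not say whether the samples of a group came from separate animals. P-values therefore describe library-to-library spread, some of which may be technical. The libraries are called WT1 to WT3 and KO1 to KO3 by their labelled replicate numbers.

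Progression through G1 depends on D cyclins, which growth factor signals induce and which bind and activate CDK4 and CDK6. The active kinases phosphorylate RB and its relatives p107 and p130, which then release E2F transcription factors that switch on S phase genes. INK4 proteins such as p18 and p19 bind CDK4 and CDK6 directly, whereas p27 binds assembled cyclin and kinase complexes. In blood precursors the D cyclins are induced by cytokines of the kind used in these cultures, and mouse embryos without any D cyclin fail in blood formation.

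Depth was between 7056614 and 15569088 reads on genes in 5 libraries, while WT3 held 27909, so that 1 read in it was worth 29.9 normalised CPM (counts scaled to the effective library size). Its values are given as reads with exact 95% Poisson intervals, which cover counting error only, and each fitted value of the 10 genes is given with and without it. Mitochondrial genes took 15.7% of gene reads in KO2 and 9.52% in WT3, against 1.26% to 1.84% in the other libraries. Psip1 had 89.3 CPM in WT1, 70.0 in WT2 and 3 reads in WT3, against 14.8, 17.6 and 16.3 CPM in KO1, KO2 and KO3. Neutrophil, monocyte and mast cell marker lists had reads in every library, while T cell genes were close to absent (Cd3e and Cd3g had 0 reads in the 5 deep libraries).

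Upstream sequences are shown first for the members whose promoters hold a match to a motif of MYC or E2F, factors that act around these genes. RefSeq promoter windows on GRCm38.p6 (250 bases before and 50 after a start) were matched for 7 of the 10 genes, with 9 windows in all. Ccnd1, Ccnd2 and Rb1 had no entry. Each window was searched on both strands for the E-box bound by MYC (CACGTG), for the E2F words TTTCCCGC, TTTCGCGC, TTTGCCGC and TTTGGCGC, and for the STAT word TTCNNNGAA. The E-box lies in 7.15% of all 32851 windows, an E2F word in 2.26% and the STAT word in 8.30%. The Cdk4 window, singled out after the search, held 4 E-boxes, starting at -172, -118, -98 and -11 from the gene's start, and 8 of the 32851 windows (0.0244%) held 4 or more. The Rbl1 window held 1 E2F word, which starts at -18. Beyond these, 1 of the 2 Cdkn2c windows held an E-box, at 35 bases after its start, and no window of the members held the STAT word. No motif searched here overlapped another in the windows shown. A match describes the letters only. In the lines that follow, capitals mark the motifs, Cdk4 is the plus strand at chr10:127063285-127063534 and Rbl1 the minus strand at chr2:157204535-157204634.
Cdk4: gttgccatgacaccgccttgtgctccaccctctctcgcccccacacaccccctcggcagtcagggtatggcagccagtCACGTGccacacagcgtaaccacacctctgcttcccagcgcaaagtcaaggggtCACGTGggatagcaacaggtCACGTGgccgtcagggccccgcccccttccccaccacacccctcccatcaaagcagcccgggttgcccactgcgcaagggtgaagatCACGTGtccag
Rbl1: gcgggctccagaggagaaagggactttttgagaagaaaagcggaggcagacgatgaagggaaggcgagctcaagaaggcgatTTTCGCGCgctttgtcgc

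Among the D cyclins, Ccnd1 and Ccnd2 had higher levels in each KO library than in WT1 and WT2, and Ccnd3 did not. Of all tested genes, 4.79% were higher in this way. Ccnd1 (cyclin D1, ENSMUSG00000070348.4, minus strand of chromosome 7, 144929931 to 144939925, GRCm38) had 6.68 CPM in WT1 and 8.42 in WT2. The KO1, KO2 and KO3 levels were 19.2, 30.4 and 33.8 CPM, averaging 27.8 ± 7.63 (SD, n = 3). The lowest KO library was thus 2.28 times the higher of these WT libraries, and the means lay 3.68-fold apart. WT3 held 1 Ccnd1 read (interval 0.0253 to 5.57), where the KO mean would give 0.930 reads and the mean of WT1 and WT2 would give 0.253, so this library does not separate the levels. The fitted log2 fold change of Ccnd1 was 1.80 (SE 0.45), and 1.88 (SE 0.38) without WT3. As Ccnd1 was picked from these counts for being higher in KO, the size of these values against their SE is not a test. Ccnd1 shares 1100 exonic bases with a gene on the opposite strand, but the counts are stranded, and the reads on the opposite strand of Ccnd1 numbered 21 in WT1, 23 in WT2 and 31, 12 and 29 in KO, so they overlapped between the groups.

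**Figure D1:**
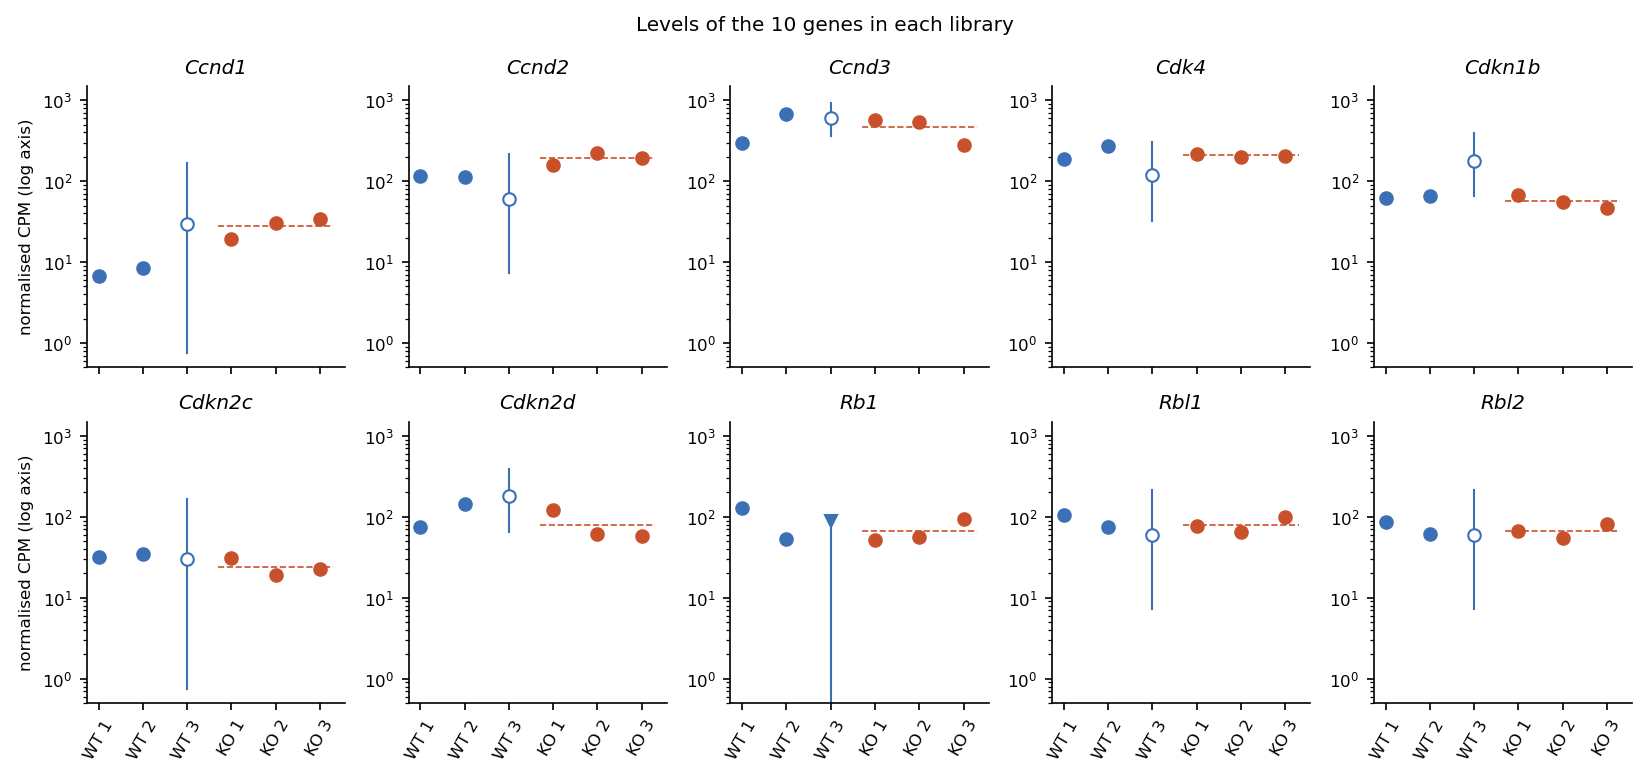
Level of each of the 10 genes in normalised CPM (log axis) in each library, WT in blue and KO in red. Filled points are the 5 deep libraries, open points are WT3 with its exact 95% Poisson interval (for Rb1, with 0 reads, a triangle marks the level of 3 reads), and the dashed line is the KO mean. Ccnd1 and Ccnd2 lie higher and Cdkn2c lower in each KO library than in WT1 and WT2, while the other genes overlap among the 5 deep libraries. Of all tested genes, 4.79% lie higher and 3.87% lower in each KO library than in WT1 and WT2.

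Ccnd2 (cyclin D2, ENSMUSG00000000184.12, minus strand of chromosome 6, 127125162 to 127152193), a D cyclin known as a target of cytokine signalling through STAT5, was more even within each group than Ccnd1. Its level was 114.7 CPM in WT1 and 112.1 in WT2. The KO levels were 156.8, 224.0 and 191.2 CPM, averaging 190.7 ± 33.6 (SD, n = 3), which is 1.68 times the mean of those WT libraries. Every KO library lay above WT1 and WT2, as in 4.79% of all tested genes. WT3 held 2 reads (interval 0.242 to 7.22) where the KO mean would give 6.38 and the mean of WT1 and WT2 would give 3.796. The log2 fold change was 0.84 (SE 0.34), and 0.75 (SE 0.28) without WT3.

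Ccnd3 (cyclin D3, ENSMUSG00000034165.16, plus strand of chromosome 17, 47505051 to 47599691) had the most reads of the D cyclins in every library. Its level was 299.1 CPM in WT1 and 685.0 in WT2, against 571.6, 536.8 and 282.8 in KO1, KO2 and KO3. The groups overlapped, with WT2 highest and KO3 lowest. In WT3 there were 20 reads (interval 12.2 to 30.9). Its fitted log2 fold change was -0.16 (SE 0.43), and -0.09 (SE 0.47) without WT3. Its sign turned without WT2 (0.19) and without KO3 (0.13).

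The mix of D cyclins differed between libraries. Ccnd1 made up 1.59% of D cyclin reads in WT1, 1.05% in WT2 and 2.57%, 3.84% and 6.65% in the KO libraries. In WT3 it was 1 of 23 reads (4.35%, 95% Wilson interval 0.772% to 20.99%). The share of Ccnd2 in the reads of Ccnd2 and Ccnd3, which leaves out Ccnd1 and does not depend on scaling between libraries, was 27.7%, 14.1% and 9.09% in WT1, WT2 and WT3. In KO it was 21.5%, 29.4% and 40.3%. The KO mean of 30.4% ± 9.45 (SD, n = 3) lay 13.5 percentage points above the WT mean of 17.0% ± 9.64 (SD, n = 3). Tested two-sided by exact permutation, this gave p = 0.2 (0.6 adjusted over 3 such shares), where 3 libraries against 3 cannot go below 0.1. WT1 lay above KO1, so the groups overlapped. The gap was 9.55 points without WT3 (exact permutation p = 0.4) and 8.53 points without KO3 (exact permutation p = 0.3).

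**Figure D2:**
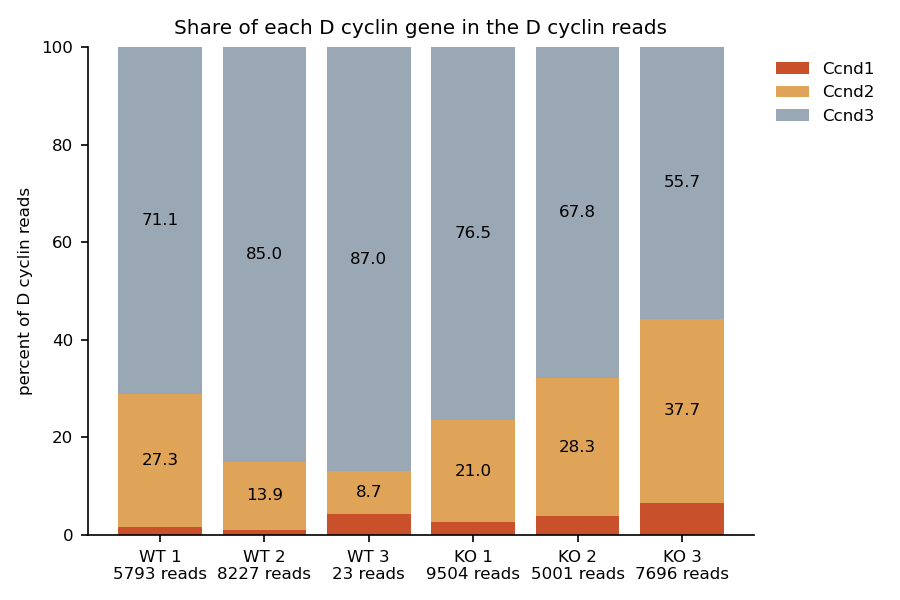
Percent of D cyclin reads that fell on Ccnd1, Ccnd2 and Ccnd3 in each library, with the number of D cyclin reads under each bar. Ccnd3 takes the largest part everywhere, from 55.7% in KO3 to 87.0% in WT3, which rests on 23 reads.

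Cdk4 (plus strand of chromosome 10, 127063534 to 127067920), which encodes the kinase that D cyclins activate, spanned 1.44 times from lowest to highest among the 5 deep libraries, the narrowest range of the 10 genes beside that of Cdkn1b (1.45 times). Its level was 190.6 CPM in WT1 and 273.6 in WT2, against 217.5, 200.4 and 204.9 in KO, so that every KO library lay between those WT libraries. In WT3 there were 4 reads (interval 1.09 to 10.2). The log2 fold change was -0.02 (SE 0.34), and -0.16 (SE 0.28) without WT3. Its sign turned under several settings, to 0.01 with DESeq2's size factors and 0.31 without WT2. Myc, whose protein binds the E-box and activates Cdk4, had 76.0 CPM in WT1 and 142.6 in WT2, and 122.6, 129.7 and 88.9 in KO, with a fitted log2 value of -0.01 (SE 0.37).

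The inhibitors among the 10 genes had negative fitted values, as did 5899 of the 12292 genes tested. Of these inhibitors, Cdkn2c lay lower in each KO library than in WT1 and WT2, as did 3.87% of all tested genes. Cdkn2c (p18, minus strand of chromosome 4, 109660876 to 109667189), an INK4 inhibitor known to restrain blood stem cells, had 31.6 CPM in WT1 and 34.4 in WT2. The KO levels were 30.6, 19.3 and 22.6 CPM, averaging 24.2 ± 5.81 (SD, n = 3), and KO1 was just below the lower WT library. A single read fell in WT3 (interval 0.0253 to 5.57), an interval that holds both levels. The log2 fold change was -0.44 (SE 0.35), and -0.45 (SE 0.30) without WT3.

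Cdkn2d (p19, minus strand of chromosome 9, 21288410 to 21291407), the other INK4 inhibitor, had 75.9 CPM in WT1 and 143.7 in WT2, against 120.0, 61.1 and 57.9 in KO, and the groups overlapped. WT3 held 6 reads (interval 2.20 to 13.1). Fitting gave a log2 fold change of -0.58 (SE 0.43), and -0.46 (SE 0.44) without WT3. Cdkn2c held 24.1% ± 3.89 of the reads of these INK4 genes in KO and 20.98% ± 7.68 in WT (SD, n = 3 each; exact permutation p = 0.6). Without WT3, which held 7 such reads, the difference of 3.16 points became -0.19.

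Cdkn1b (p27, plus strand of chromosome 6, 134920401 to 134925513), whose protein holds cells in G1 and is removed before S phase, had 61.6 CPM in WT1 and 65.7 in WT2. KO1, KO2 and KO3 had 68.2, 54.9 and 47.1 CPM, so the groups overlapped. WT3 held 6 reads (interval 2.20 to 13.1), above the 2.13 that the mean of the other WT libraries would give. For p27 the log2 fold change was -0.39 (SE 0.39), and it moved to -0.17 (SE 0.26) without that library.

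The RB family overlapped between the groups and was highest in 1 library of each. Rb1 (RB, minus strand of chromosome 14, 73183673 to 73325822) had 128.8 CPM in WT1 and 53.6 in WT2, against 52.0, 56.3 and 93.7 CPM in KO. It had 0 reads in WT3, where the floor of 3 reads used for a count of 0 stands at 89.6 CPM and the exact two-sided Poisson interval reaches 110.2 CPM. Rbl1 (p107, minus strand of chromosome 2, 157145893 to 157204534), itself switched on by E2F, had 105.7 CPM in WT1 and 74.7 in WT2, against 76.1, 64.2 and 99.3 CPM in KO. Rbl2 (p130, plus strand of chromosome 8, 91070057 to 91123844), the member linked to resting cells, had 87.6 CPM in WT1 and 61.4 in WT2, against 66.6, 55.4 and 81.1 CPM. Rbl1 and Rbl2 had 2 reads each in WT3.

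All 3 RB family genes were highest in WT1 and next in KO3. Their log2 fold changes were -0.29 (SE 0.49) for Rb1, -0.12 (SE 0.34) for Rbl1 and -0.11 (SE 0.33) for Rbl2, and -0.44, -0.18 and -0.14 without WT3. Leaving out WT1 turned them to 0.55, 0.19 and 0.20. Rbl1 held 37.3% ± 1.58 of RB family reads in KO and 40.7% ± 8.67 in WT (SD, n = 3 each; exact permutation p = 0.7). That difference of -3.45 points became 1.18 without WT3, which held 4 RB family reads, and -19.3 with counts that ignore strand (exact permutation p = 0.7).

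**Figure D3:**
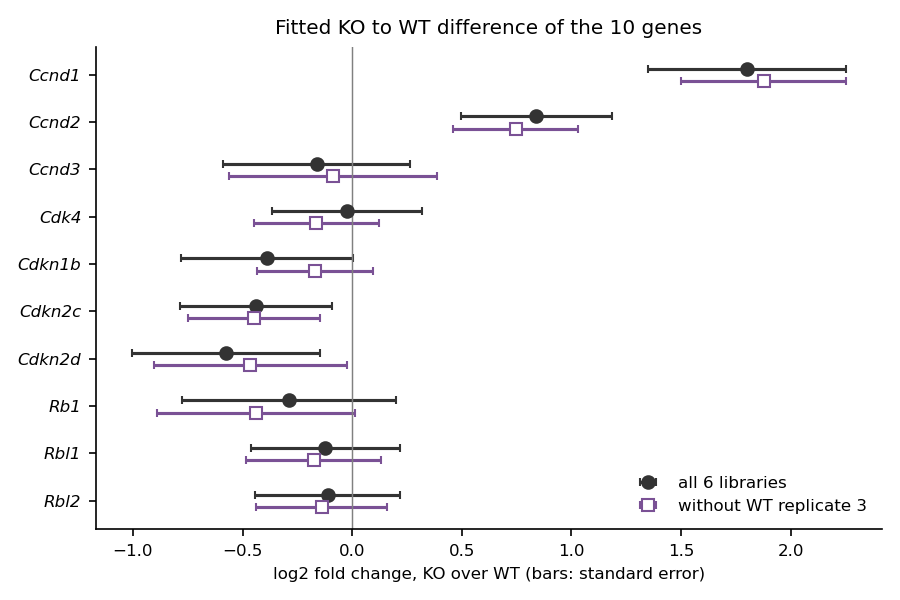
Fitted log2 fold change (KO over WT) of each gene with its standard error, from all 6 libraries (filled) and without WT3 (open). Ccnd1 at 1.80 and Ccnd2 at 0.84 lie on the positive side and the other 8 genes between -0.58 and -0.02. Ccnd1 was picked for this contrast, so its bars are not a test.

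Read against all genes, the 10 members stood as follows. Of the 12292 genes tested by edgeR's quasi-likelihood test, 0 passed an adjusted p of 0.05 (0%), while 178 had an unadjusted p under 0.05 (152 higher and 26 lower in KO). DESeq2 called 1 gene and limma-voom 0. By edgeR Psip1 itself, at a log2 fold change of -2.32 (SE 0.32), missed the threshold (edgeR adjusted p = 0.0599). Missing it therefore does not show that a gene was unchanged. All 10 members were tested, and none of the 9 other than Ccnd1 passed (edgeR adjusted p = 1.00 for each after Benjamini-Hochberg adjustment). These 9 had a median log2 fold change of -0.16, against 0.01 over all genes tested. Every KO library lay above WT1 and WT2 for 2 of the 10 members, Ccnd1 and Ccnd2, and below them for 1, Cdkn2c. The same held for 4.79% and 3.87% of all tested genes. As the members were chosen around this contrast, nothing is read from those counts.

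Per length, Cdk4, Ccnd3 and Cdkn2d were the most abundant of the 10 transcripts and Ccnd1 the least. On the scale of CPM per kilobase of annotated exons, the median level over the 5 deep libraries was 63.1 for Cdk4, 61.2 for Ccnd3 and 48.2 for Cdkn2d. Ccnd2 followed at 16.7, Cdkn1b at 13.5, Rbl1 at 12.7, Cdkn2c at 11.4, Rb1 at 9.36, Rbl2 at 8.82 and Ccnd1 at 4.08. Neighbours in this order overlapped in range except at 2 steps, between Cdkn2d and Ccnd2 and between Rbl2 and Ccnd1, which each held in 5 of 5 libraries. Ccnd3 lay above Cdkn2d in only 1 of the 5 libraries. The order of the first 3 also depends on the length used. With the longest coding transcript, Ccnd3 was at 254.0 and Cdk4 at 99.8 CPM per kilobase, and Ccnd3 was first in each of the 5 libraries.

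Several members stood in the same order across libraries as markers of the cell types in the colonies, in which fewer cells of a type and less RNA per cell cannot be told apart. The summed level of 9 neutrophil markers, which include the granule genes Mpo, Elane and Ltf, was 44864 CPM in WT1 and 99955 in WT2, against 89003, 41124 and 35331 CPM in KO1, KO2 and KO3. Cdkn2d stood in exactly that order among the 5 deep libraries (WT2, KO1, WT1, KO2, KO3). Ccnd3 followed it with KO2 and WT1 exchanged. The 7 monocyte and macrophage markers, among them Csf1r and Lyz2, summed to 12405 CPM in WT1 and 5055 in WT2, against 7631, 4557 and 12339 CPM in KO, and Rbl1 and Rbl2 stood in exactly that order. Cdk6, not a member, stood in the monocyte order too, and how many of all genes share either order was not counted. WT3 held 2340 reads of the neutrophil and 75 of the monocyte list. All 9 neutrophil markers had a negative log2 fold change, as did 5899 of the 12292 genes tested, and none passed. Without WT3, Camp turned to 0.06 (SE 0.69). Neither sum separated the genotypes, and the part of cell makeup in these levels was not tested.

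Of the marker lists, the scarce stromal and endothelial one had a higher sum in each KO library than in WT1 and WT2, but its sum was highest in WT3. Stromal and endothelial markers, whose cells are known to use cyclin D1, summed to 18.4 CPM in WT1 and 20.95 in WT2, against 38.2, 23.7 and 23.0 CPM in KO. Col1a1 alone had 10.2 CPM in WT1 and 12.6 in WT2, against 29.5, 16.6 and 9.63 CPM in KO. Col1a2 had at most 12 reads in any library. The 5 reads of the list in WT3 stand for 149.4 CPM, above every KO library. Of the 7 markers, 1 (Cdh5, with at most 8 reads in any library) was higher in each KO library, 3 were tested and all 3 had a positive log2 fold change, and Col3a1 and Cxcl12 had 0 reads in the 5 deep libraries. Col3a1 made up 3 of the 5 reads in WT3. Among the 5 deep libraries the sum was highest in KO1, where Ccnd1 was lowest among KO. Of the monocyte and macrophage markers, 1 of 7 (Mrc1) was higher and 1 (C1qa) lower in each KO library than in WT1 and WT2. Over all tested genes, 4.79% were higher and 3.87% lower in this way. Mast cell and basophil markers (8) summed to 5288 CPM in WT1 and 4491 in WT2, against 3063, 9178 and 4113 CPM in KO, with none of the 8 separated by genotype. The part of cell makeup in the Ccnd1 and Ccnd2 levels was not tested.

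**Figure D4:**
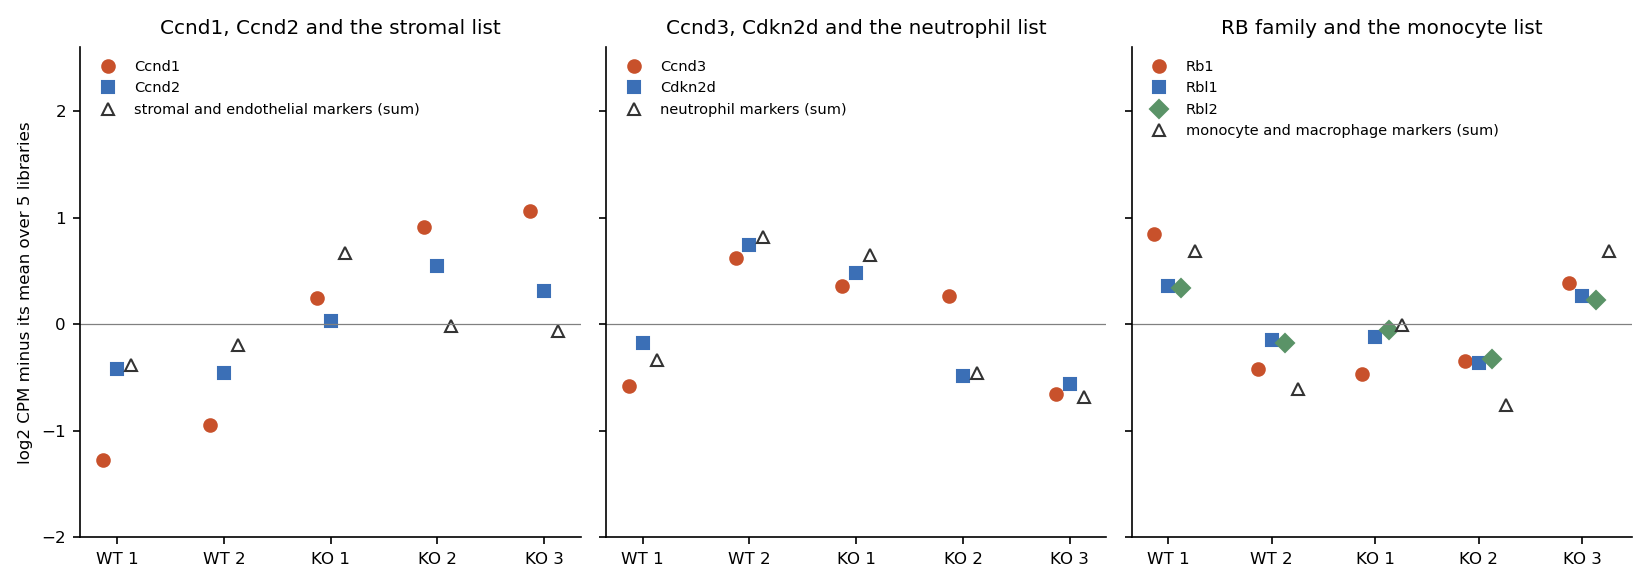
Level of D cyclin, INK4 and RB family genes in each of the 5 deep libraries as log2 CPM minus the gene's mean over those libraries (filled), beside the summed level of a marker list on the same scale (open triangles). Cdkn2d follows the neutrophil sum and Rbl1 and Rbl2 follow the order of the monocyte sum, while Ccnd1 spans 5.06 times from lowest to highest.

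The genes whose profile over the 5 deep libraries was most like that of each D cyclin differed between the D cyclins. Likeness was the root mean square difference of log2 CPM after centring each gene on its mean, over 9066 genes with a mean of at least 10 CPM, and it is a description over 5 libraries. Nearest to Ccnd1 were Ctsk, which encodes cathepsin K (0.33), Pls3 (0.36), Sh2d1b1 (0.37), Myrf (0.45) and Gm5416 (0.45). Ctsk had 30.6 CPM in WT1 and 33.9 in WT2, against 66.9, 90.0 and 75.7 CPM in KO. As Ccnd1 was picked for being higher in KO, genes picked for a profile like it show that gap by choice. Among the nearest to Ccnd2 were Lmna, which encodes the nuclear lamins A and C (0.09), the collagen gene Col18a1 (0.10), Akr1b10 (0.14) and Arhgap39 (0.14). Nearest to Ccnd3 were Wdyhv1 (0.01), Cnpy4 (0.03), the ribosomal protein gene Rpl35a (0.03), Banf1 (0.04) and the cytokine receptor gene Il21r (0.05). No gene was among the 5 nearest of more than 1 D cyclin.

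Of 44 further G1 genes from a list of kinase partners, inhibitors, E2F factors, DREAM subunits, protein turnover factors and upstream regulators, all were tested and 0 passed the threshold in either direction by edgeR, DESeq2 or limma-voom. By edgeR 1 had an unadjusted p under 0.05. The list held 21 positive and 23 negative log2 fold changes with a median of -0.01, against 0.01 over all genes tested. Without WT3 it held 16 positive and 28 negative values, with a median of -0.09 against -0.02 over all genes. In 2 of the 44 (4.55%) every KO library lay above WT1 and WT2 and in 5 (11.4%) below, against 4.79% and 3.87% of all tested genes.

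The 4 other inhibitors on that list had positive values, as did 6393 of the 12292 genes tested. Cdkn2a, which encodes the INK4 inhibitor p16 and, from a shared locus, the p53 regulator ARF that this count cannot separate, had 8.93 CPM in WT1 and 11.6 in WT2, against 13.3, 77.5 and 17.9 CPM in KO. Its log2 fold change was 1.84 (SE 0.69), and it was 0.65 (SE 0.47) without KO2, the library with 15.7% mitochondrial reads. Cdkn2b, the neighbouring gene for p15, had 2.98 CPM in WT1 and 3.43 in WT2, against 3.93, 14.2 and 3.76 CPM (log2 fold change 1.00, SE 0.73), and was at 0.07 (SE 0.64) without KO2. These were the 2 genes of the list that were higher in each KO library than in WT1 and WT2. WT3 held 0 Cdkn2a reads and 1 Cdkn2b read. Cdkn1c, the imprinted gene for p57, ranged from 0.685 CPM in WT2 to 11.2 CPM in KO3 and overlapped between the groups (log2 fold change 0.90, SE 0.92). Cdkn1a, the p53 target p21, had 174.6 CPM in WT1 and 169.6 in WT2, against 144.7, 222.3 and 215.0 CPM in KO (0.20, SE 0.33). None of these passed, with edgeR adjusted p = 1.00 for each.

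None of the partners and downstream factors passed the test. Cdk6, the second kinase of D cyclins, was at -0.13 (SE 0.32) and Cdk2 at -0.05 (SE 0.35), while the E cyclins that activate Cdk2 were at -0.17 (SE 0.42, Ccne1) and -0.32 (SE 0.49, Ccne2). All 5 partners, Ccna2 included, had negative log2 fold changes, with a median of -0.17, as did 5899 of the 12292 genes tested. Without KO2, Cdk2 turned to 0.05 (SE 0.42) and Ccne2 to 0.04 (SE 0.46). Of 10 E2F family genes 5 were positive and 5 negative, from -0.435 (Tfdp2) to 0.65 (E2f5, SE 0.58), with E2f1, an activator, at -0.17 (SE 0.42) and E2f4, which pairs with p107 and p130, at 0.07 (SE 0.35). Skp2, which marks p27 for removal, was at -0.11 (SE 0.41), and Foxo3, which activates Cdkn1b, was at 0.02 (SE 0.33). The 5 genes that lay below WT1 and WT2 in each KO library were E2f7, Tfdp2, Lin52, Rbbp4 and Stat5b, with log2 fold changes from -0.435 to -0.0049, and were named after their values were seen. Of these, Stat5b, which relays IL-3 signals, had 100.7 CPM in WT1 and 96.9 in WT2, against 92.6, 91.9 and 88.5 CPM in KO.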

How the data were processed

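Read counts per gene were deposited by the authors, 1 table per sequencing run. Per the submitters' processing notes the tools include STAR 2.5.1b and DESeq2 and the build was GRCm38, while the sources used here do not give the annotation release. Libraries were made with a stranded kit per the labels' protocols, so column 4 was used (95.6% to 97.5% of stranded gene reads), and rows that name no gene (25.6% to 47.8% of reads) were left out. The 2 runs of WT replicate 3 (27351 and 558 reads) were summed as 1 replicate. Of 46983 genes, 46488 were matched to GENCODE M21.

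All genes kept by filterByExpr were fitted together with edgeR 4.0.16 (TMM, robust glmQLFit, glmQLFTest, two-sided, genotype only, Benjamini-Hochberg threshold 0.05). Standard errors were derived from the F statistic (absolute log2 value over its square root). The test was checked on simulated counts. Shares were compared by exact permutation. Alternatives used DESeq2 1.42.0, limma 3.58.1, other scaling, filtering and strand, 1 run, a replicate block and left-out libraries. The members and lists were chosen with earlier results of these data known. The rule on names covers the 10 members, 13 G1 genes, any list member past the threshold and the 5 genes nearest each D cyclin. One of the latter is not reported here. Ccna2 and the single markers were named after their values were seen.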

Additional observations from a re-analysis of the deposited data

How the results depend on the processing

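Across 16 alternatives Ccnd1 and Ccnd2 kept positive log2 fold changes (1.55 to 1.998 and 0.71 to 0.97). Cdkn1b, Cdkn2c and Cdkn2d kept negative ones (-0.58 to -0.17, -0.64 to -0.30 and -1.01 to -0.25). Ccnd1 was picked for being higher in KO in these same counts, so its sign across refits of them adds no support. Of the other members, none was called under any alternative, with adjusted p of 0.836 or more, and Ccnd1 was not tested. Ccnd3 ran from -0.43 to 0.19 when 1 library was left out (0.19 without WT replicate 2, 0.13 without KO replicate 3). The log2 fold change of Cdk4 turned to 0.0105 with scaling by DESeq2 size factors, 0.0068 in DESeq2, 0.0152 with no low-count filter and 0.0798 with the replicate block, and lay between -0.16 and 0.31 when 1 library was left out. Without WT replicate 1, Rb1, Rbl1 and Rbl2 turned to 0.55, 0.19 and 0.20, and without KO replicate 2 Rbl1 and Rbl2 turned to 0.01 each. The lowest values when 1 library was left out were -0.60 for Rb1, -0.29 for Rbl1 and -0.27 for Rbl2. When 1 library was left out, the Ccnd2 share ran from 8.53 to 18.9 points, the INK4 share from -0.19 to 7.35 and the Rbl1 share from -7.42 to 1.18. With counts that ignore strand the Rbl1 share was at -19.3 points. DESeq2 moved the median of all genes to -0.32 and leaving out WT replicate 1 moved it to 0.13, from 0.01. The causes were not tested.

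The number of genes called moved more. Without a low-count filter 4 were higher and 5 lower, with scaling by library size only 2 were lower, with DESeq2 1 was lower, and with 1 library left out 0 to 2 were higher and 0 to 5 lower. DESeq2 without WT replicate 3, added after the data were seen, called 7 higher and 5 lower. The replicate block called 8 higher and 5 lower, with Ccnd1 at 1.55 and Ccnd2 at 0.89. The replicate numbers were not taken as pairs, as nothing says that they mark a litter or day. Same-numbered libraries correlated at -0.287, -0.032 and -0.146 in their deviations from the group means, and none correlated best with its own number. The WT mean there includes the shallow WT replicate 3, so these values do not tell whether the numbers mark pairs. With the longest coding transcript as length, also added later, the median CPM per kilobase was 24.8 for Ccnd2, 254.0 for Ccnd3, 99.8 for Cdk4, 15.7 for Rbl1 and 13.5 for Rbl2. Depth limits WT replicate 3, where 1 read is 29.9 CPM.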
